A study of Mus musculus with 18 samples.

Results

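The oligoadenylate synthetase (OAS) family was followed through its 7 genes Oas1a, Oas1c, Oas1g, Oas2, Oas3, Oasl1 and Oasl2, taken from the 18204 genes of the deposited table by their symbols. All 7 were above the expression limit used for testing. J774.1, a mouse macrophage cell line, was studied as wildtype cells and as Ctbp1/2dKO cells, in which both genes for C-terminal binding proteins (CTBPs), transcriptional co-repressors, were disrupted with CRISPR. Either genotype received MTOB at 1.5 mM, 4-Cl-HIPP at 0.25 mM or a vehicle of PBS/DMSO for 4 h, which gives 6 groups of 3 biological replicates and 18 samples. MTOB is a substrate analogue that occupies the pocket of the CTBP dehydrogenase domain, 4-Cl-HIPP is an inhibitor developed from it, and a single vehicle group per genotype serves both. The knockout cells were grown out from single cells and picked as clones, so that a difference between genotypes and a difference between clones cannot be told apart. No batch is given in the labels.

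OAS proteins sense double-stranded RNA, the sign of a replicating virus. On binding it, the active enzymes link ATP into short oligoadenylates with an unusual bond, which serve as a second messenger of antiviral defence. The genes belong to the interferon-stimulated genes, which are induced in macrophages when interferon receptors activate a transcription factor complex with IRF9 at a DNA motif called the interferon-stimulated response element. Among the mouse genes, Oas1a and Oas1g encode active small enzymes, and Oas2 and Oas3 encode larger enzymes with repeated OAS domains. Oasl1 and Oasl2 encode OAS-like proteins with ubiquitin-like domains, and OASL1 is known to restrain translation of the interferon regulator IRF7.

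All 7 genes lie on chromosome 5 of the mouse genome build GRCm39, in a pair of clusters. Oas1a (ENSMUSG00000052776, 121031070 to 121046449), Oas1g (ENSMUSG00000066861, 121014205 to 121025676), Oas1c (ENSMUSG00000001166, 120938259 to 120950579), Oas3 (ENSMUSG00000032661, 120891163 to 120915729) and Oas2 (ENSMUSG00000032690, 120868398 to 120887933) sit on the minus strand, and Oasl1 (ENSMUSG00000041827, 115061294 to 115075974) and Oasl2 (ENSMUSG00000029561, 115034997 to 115050295) are neighbours on the plus strand. Promoter windows of 300 bases, from 250 before to 50 after the transcription start, were held by the RefSeq table for 6 of the 7 members, all but Oas2. The core of the interferon-stimulated response element, read as GAAA, any 2 bases and GAAA on either strand, stood in 4 of these 6 windows, those of Oas1a, Oas1c, Oas1g and Oas3, against 3.44% of all 32851 windows in the table. These stretches, which end at or before the last base upstream of the start, are shown because they hold the matches, which are in capitals (RefSeq sequences from the GRCm38.p6 table, GRCm39 positions by exact match, all on the minus strand).
Oas1a, chr5:121045589-121045638: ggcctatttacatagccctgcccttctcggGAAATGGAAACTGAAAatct
Oas1g, chr5:121025677-121025724: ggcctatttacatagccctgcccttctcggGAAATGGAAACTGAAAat
Oas1c, chr5:120950648-120950723: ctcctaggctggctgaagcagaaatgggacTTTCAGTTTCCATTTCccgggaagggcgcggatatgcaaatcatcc
Oas3, chr5:120915760-120915829: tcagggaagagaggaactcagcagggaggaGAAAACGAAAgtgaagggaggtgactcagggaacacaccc
The capitals of Oas1a, Oas1g and Oas1c each hold 2 overlapping matches. The shown stretches of Oas1a and Oas1g are the same at 48 of 48 bases, and the capitals of Oas1c are the reverse complement of theirs. The letters were not found in the windows of Oasl1 and Oasl2. A match describes the sequence and was not tested as a binding site.

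Expression is given as TPM, read estimates divided by transcript length and scaled to a fixed total, a measure that allows levels of different genes to be compared. The TPM of every sample have nearly the same sum, and how deeply each was sequenced is unknown. Differences were tested with limma on log2(TPM + 1) over 16383 genes. A gene was called when its Benjamini-Hochberg-adjusted p-value was below 0.05 and its fold change above 1.5 (0.58 on the log2 scale), and the difference of 2 inhibitor effects when its adjusted p-value was below 0.05. For genes with few TPM, here Oas1c and Oasl2, the pseudocount shrinks the change on this scale. Their ratio of mean TPM is therefore given too between genotypes under vehicle and for each inhibitor against vehicle. How the replicates were grown apart is not stated, and p-values measure the spread between these samples. Reads of near-identical genes can be divided between them: of all 31-base words in the annotated transcripts, 60.5% of those of Oas1g, 18% of those of Oas1a and 20.7% of those of Oas1c also occurred in other OAS genes, against 0% for Oas2, Oas3 and Oasl2 and 0.108% for Oasl1.

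The knockout was visible at the RNA level mainly for Ctbp1, which had 218 ± 18.1 TPM under vehicle in wildtype cells against 25.1 ± 0.638 TPM after the knockout (SD, n = 3), whereas Ctbp2 had 92.6 ± 4.57 and 75.9 ± 3.13 TPM (SD, n = 3). The authors showed by western blot that both proteins were lost, which these RNA levels do not measure. Macrophage markers were detected in all samples, with Cd68 at 542 to 703 TPM, Lyz2 at 465 to 687 TPM and Spi1 at 209 to 314 TPM. Of 11 markers of other cell types 3 were listed, and their summed level was between 0 and 1.34 TPM in every sample. Relative to their level the macrophage markers Adgre1 and Itgam varied most, from 6.70 to 107 TPM and from 11.3 to 65.3 TPM. Their part in the results was not tested. Sums of the macrophage markers given below are made up mostly of Cd68 and Lyz2.

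In wildtype cells under vehicle the family spanned a wide range of levels. Oas1a was the most abundant member at 44.3, 48.6 and 45.4 TPM in the 3 replicates, followed by Oas1g at 34.5, 27.7 and 27.8 TPM. Oas3 had 20.6, 23.4 and 23.2 TPM and Oas2 had 21.9, 17.3 and 18.4 TPM, and the ranges of these neighbours overlapped. Oasl1 followed at 8.90, 10.8 and 11.8 TPM. Oas1c (3.02, 3.14 and 2.32 TPM) and Oasl2 (1.29, 0.657 and 2.89 TPM) were the least abundant and overlapped. Together the members summed to 135, 132 and 132 TPM, of which Oas1a made up 34.8% and Oas1g 22.6% of the mean.

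In dKO cells under vehicle every member was more abundant than in wildtype cells, with no overlap between the 3 dKO and the 3 wildtype samples for any of them. All 7 were called higher, where 3.28% of all genes tested were called higher and 15.1% were higher with no overlap. The median log2 fold change of the members was 1.37, and that of all genes 0.01. The sum of the members was 289, 273 and 335 TPM in the dKO samples. In bulk RNA, more RNA per cell and a larger share of cells that express a gene cannot be told apart. The macrophage markers summed to 1530 to 1569 TPM in these dKO samples and 1447 to 1487 TPM in the wildtype samples, and their part in the result was not tested.

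The large enzymes and the OAS-like genes showed the widest gaps. Oas3 had 63.9, 59.9 and 74.6 TPM in dKO samples, 2.95 times the wildtype mean and a difference of 1.52 on the log2(TPM + 1) scale (SE 0.11, Benjamini-Hochberg-adjusted p = 1.59e-07, limma). Oas2 had 56.2, 50.2 and 62.5 TPM, 2.93 times the wildtype mean, with a log2 difference of 1.51 (SE 0.13, adjusted p = 1.17e-06, limma). Both genes moved by nearly the same factor, and their lowest dKO samples lay well above their highest wildtype samples of 23.4 and 21.9 TPM. Oasl1 was 2.72 times as high, at 28.4, 27.4 and 29.6 TPM (log2 fold change 1.37, SE 0.15, adjusted p = 1.04e-05, limma). Oasl2 had the largest ratio of the family, 5.16, with 7.84, 5.77 and 11.3 TPM in dKO samples and a wide spread in both genotypes (log2 fold change 1.88, SE 0.34, adjusted p = 0.00139, limma).

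The genes of the Oas1 group had smaller log2 differences. Oas1a had 81.0, 77.8 and 93.1 TPM in dKO samples, a ratio of 1.82 and a log2 difference of 0.85 (SE 0.09, adjusted p = 1.13e-05, limma). Oas1g had 48.3, 42.4 and 55.9 TPM, a ratio of 1.63 and a log2 difference of 0.68 (SE 0.13, adjusted p = 0.00247, limma). Replicate 3 was the highest of the dKO vehicle samples for both, and without it the log2 fold change of Oas1g was 0.583, just under the 1.5-fold limit, at an adjusted p = 0.0171 (limma). Oas1c had 3.76, 9.24 and 7.94 TPM in dKO samples, so that replicate 1 lay close to the wildtype range and the other two well above it. Oas1c had a ratio of 2.47, near the 2.72 of Oasl1. Its log2 difference of 0.99 (SE 0.23, adjusted p = 0.00892, limma) lost the call without dKO vehicle replicate 2 (0.78, adjusted p = 0.0524, limma) and when the fit held just these 2 groups (adjusted p = 0.147, limma).

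**Figure D1:**
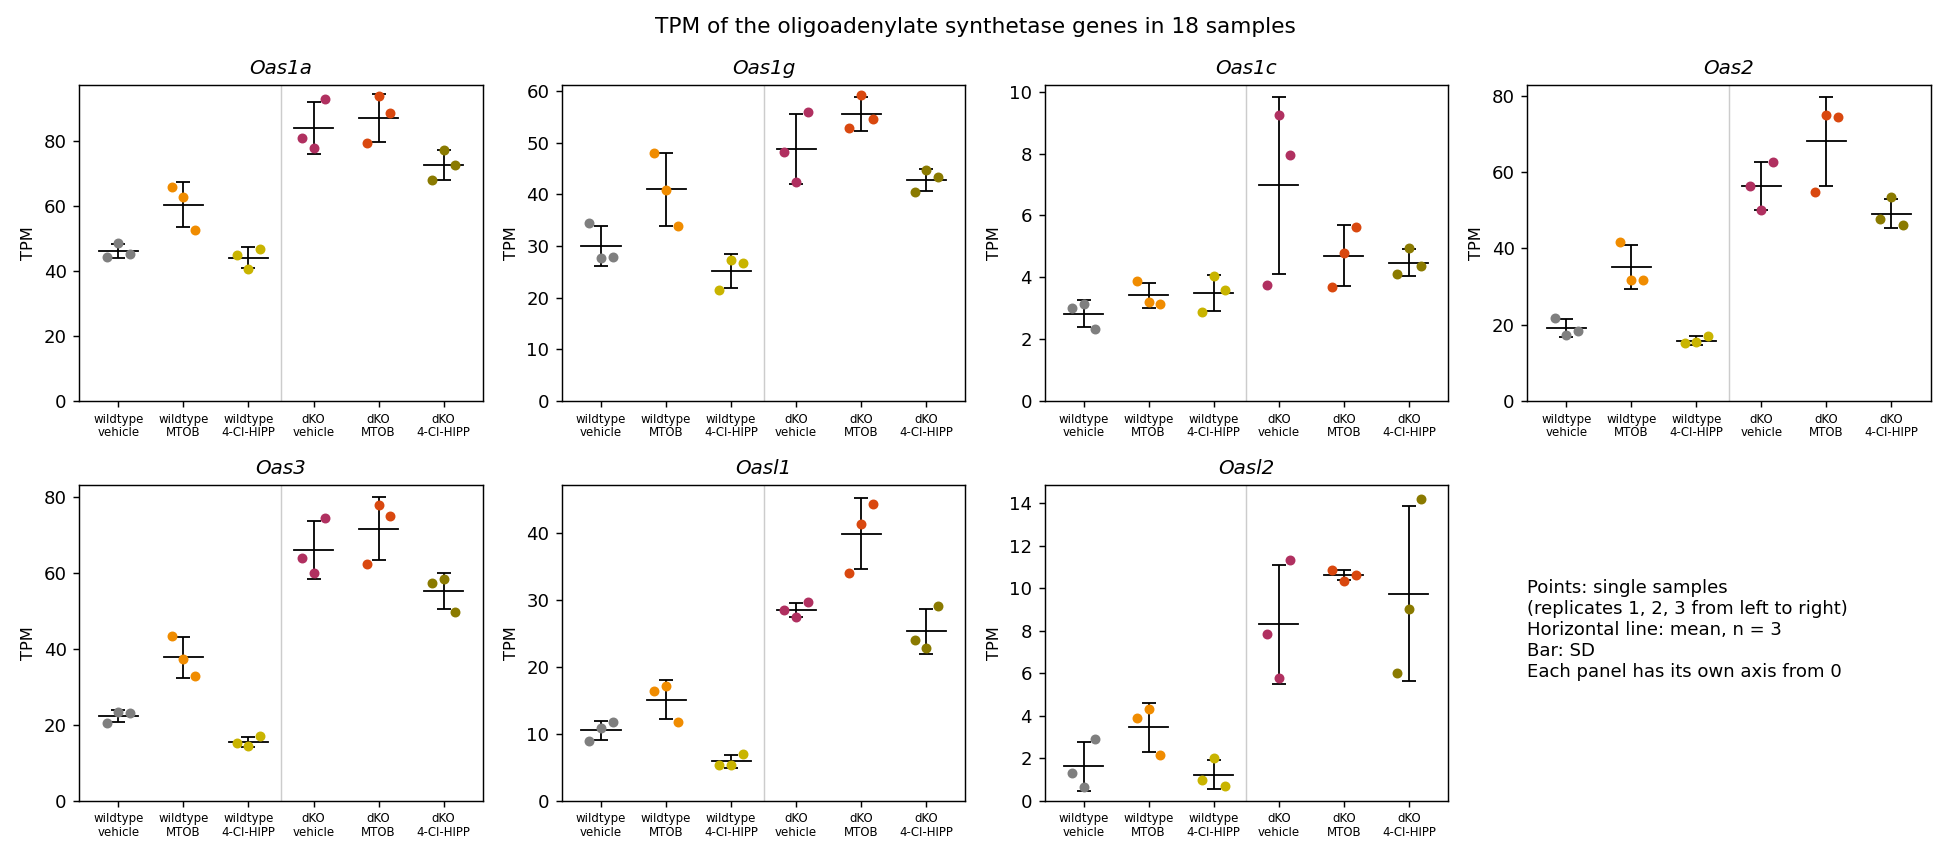
TPM of the 7 OAS genes (vertical axes, each from 0) in the 6 groups of genotype and treatment, with single samples as points, the mean of 3 replicates as a horizontal line and the SD as a bar. Every dKO vehicle sample lies above every wildtype vehicle sample of the same gene, and in wildtype cells the MTOB samples of Oas2 and Oas3 lie above the vehicle samples.

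The unequal changes altered the order of the members. In dKO cells under vehicle Oas1a was still the most abundant, but Oas3, Oas2 and Oas1g followed in that order, at means of 66.1, 56.3 and 48.9 TPM, and the ranges of Oas3 and Oas2 and of Oas2 and Oas1g overlapped. Oas1g made up 16.3% of the family sum in dKO cells against 22.6% in wildtype cells, and Oas3 22.1% against 16.9%.

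The gap between genotypes was also present under either inhibitor. Under MTOB 4 members were called higher in dKO cells (Oas2, Oas3, Oasl1 and Oasl2, with log2 fold changes of 0.94, 0.91, 1.36 and 1.42), where 3.33% of all genes were called higher, and 6 had no overlap, as had 13.4% of all genes. Oas1a and Oas1g differed by 0.53 and 0.44 (adjusted p = 0.00114 and 0.0410, limma), below the 1.5-fold limit, and Oas1c by 0.36 (adjusted p = 0.411, limma). The call of Oasl2 was lost without wildtype MTOB replicate 3 (adjusted p = 0.0628, limma), and Oas1a was called without wildtype MTOB replicate 1 or dKO MTOB replicate 1. Under 4-Cl-HIPP 6 members were called higher in dKO cells, all but Oas1c, where 3.14% of all genes were called higher, and all 7 had no overlap, as had 14.4% of all genes. The largest of these differences were 2.24 for Oasl2 (SE 0.34, adjusted p = 0.000301, limma), 1.94 for Oasl1 (SE 0.15, adjusted p = 2.34e-07, limma) and 1.77 for Oas3 (SE 0.11, adjusted p = 3.13e-08, limma). Oasl2 had 6.03, 9.03 and 14.2 TPM in dKO samples under 4-Cl-HIPP against 0.965, 2.00 and 0.712 TPM in wildtype samples, widely spread but without overlap. The 3 comparisons of genotypes use different samples but a common estimate of the spread. In all 3, genotypes and clones cannot be told apart, so they do not replicate the genotype.

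In wildtype cells MTOB was accompanied by higher levels of the large enzymes. Oas2 and Oas3 were called higher with MTOB, where 1.56% of all genes were called higher. Oas2 had 41.6, 31.8 and 31.6 TPM with MTOB against 21.9, 17.3 and 18.4 TPM with vehicle, a ratio of 1.82 and a difference of 0.83 on the log2(TPM + 1) scale (SE 0.13, Benjamini-Hochberg-adjusted p = 0.000896, limma). Oas3 had 43.4, 37.2 and 32.8 TPM against 20.6, 23.4 and 23.2 TPM, a ratio of 1.69 and a log2 difference of 0.72 (SE 0.11, adjusted p = 0.000685, limma). For both genes every MTOB sample was above every vehicle sample, and both calls held whichever of the 6 samples was left out. All of their MTOB samples were also below all of their dKO vehicle samples. The summed level of the 7 macrophage markers was also higher with MTOB, at 1767 to 1842 TPM against 1447 to 1487 TPM with vehicle, and its part in these results was not tested.

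Oas1a passed the adjusted p-value alone. It had 65.9, 62.7 and 52.6 TPM with MTOB, all above the vehicle samples, and a log2 difference of 0.38 (SE 0.09, adjusted p = 0.0206, limma), whose adjusted p-value ranged from 0.00612 to 0.101 when each of the 6 samples was left out in turn. The other 4 members did not pass the test. Oas1g had 48.1, 40.9 and 33.9 TPM with MTOB, and its lowest sample overlapped with the highest vehicle sample (log2 fold change 0.43, SE 0.13, adjusted p = 0.0648, limma). Oasl1 had 16.4, 17.1 and 11.7 TPM and overlapped with vehicle in replicate 3 alone (0.47, SE 0.15, adjusted p = 0.0706, limma). Without that sample its log2 fold change was 0.63 and it was called (adjusted p = 0.0167, limma). Oasl2 had 3.90, 4.30 and 2.16 TPM, a ratio of 2.14 (0.83, SE 0.34, adjusted p = 0.192, limma), and Oas1c had 3.89, 3.20 and 3.15 TPM, a ratio of 1.21 (0.21, SE 0.23, adjusted p = 0.725, limma). Replicate 3 was the lowest of the MTOB samples for all 7 members. Over the family 4 members were higher with no overlap (Oas1a, Oas1c, Oas2 and Oas3), where 10.6% of all genes were, and the median log2 fold change was 0.47 against -0.01 for all genes.

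In dKO cells no member was called with MTOB (limma), where 1.63% of all genes were called in either direction, and 1 of 7 had an unadjusted p-value below 0.05, as had 19% of all genes. This member was Oasl1, with 33.9, 41.3 and 44.2 TPM with MTOB against 28.4, 27.4 and 29.6 TPM with vehicle, without overlap (0.46, SE 0.15, adjusted p = 0.0826, limma). Its log2 difference was close to the 0.47 of wildtype cells. Oas2 had 54.7, 74.9 and 74.5 TPM (0.26, adjusted p = 0.316, limma) and Oas3 had 62.3, 77.8 and 75.0 TPM (0.11, adjusted p = 0.673, limma), both overlapping with vehicle. Replicate 1 was the lowest MTOB sample of dKO cells for 6 of the 7 members, all but Oasl2. Oas1a, Oas1g and Oasl2 had log2 differences of 0.06, 0.19 and 0.36, and Oas1c one of -0.43, with adjusted p-values of 0.348 to 0.831 (limma). The ratios of Oasl2 and Oas1c were 1.28 and 0.673. Oas1c was called lower without dKO vehicle replicate 1 (-0.76, adjusted p = 0.0182, limma).

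Whether the MTOB effect differed between genotypes was tested as the difference of the log2 fold changes (wildtype minus dKO). No member passed (limma), where 0.0916% of all genes did. Without adjustment 3 members had p-values below 0.05, as had 6.89% of all genes. These were Oas3, with a difference of 0.61 (95% interval 0.27 to 0.95, adjusted p = 0.296, limma), Oas2, with 0.57 (0.17 to 0.97, adjusted p = 0.526), and Oas1a, with 0.32 (0.04 to 0.60, adjusted p = 0.679). For Oasl1 the difference was 0.01, with an interval from -0.44 to 0.46. The estimate was positive for all 7 members.

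**Figure D2:**
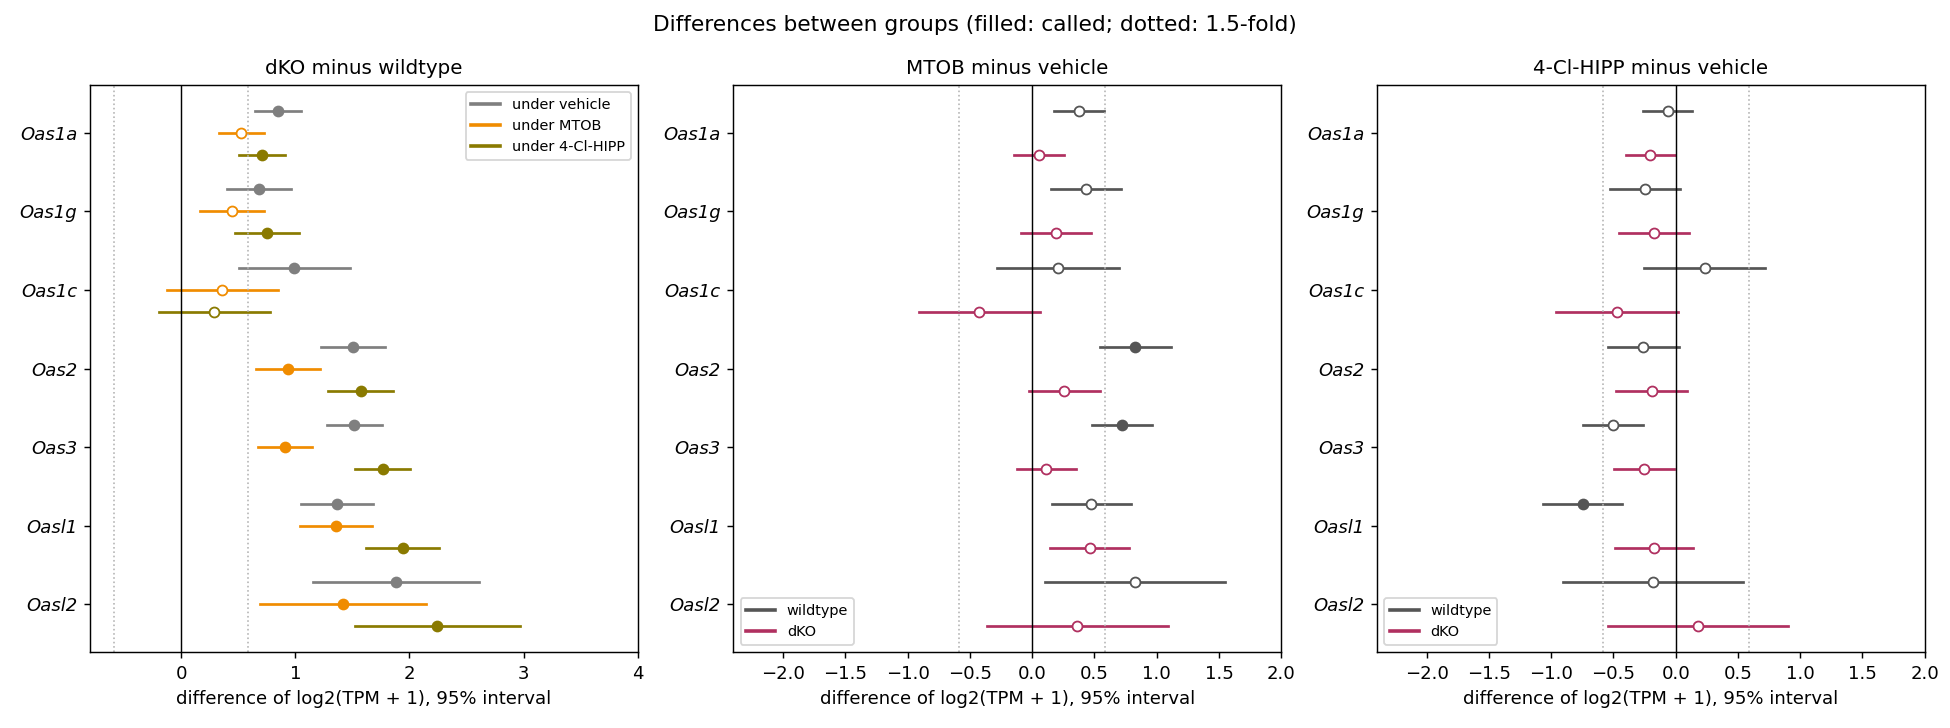
Differences of log2(TPM + 1) for the 7 OAS genes between genotypes under each treatment (left), between MTOB and vehicle (middle) and between 4-Cl-HIPP and vehicle (right), as points with 95% intervals from limma. Filled points were called and dotted lines mark a fold change of 1.5. All 7 points under vehicle in the left panel are filled, Oas2 and Oas3 are filled for MTOB in wildtype cells, and Oasl1 is filled for 4-Cl-HIPP in wildtype cells.

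With 4-Cl-HIPP a single member, Oasl1, was called in wildtype cells, and it was lower. Oasl1 had 5.26, 5.34 and 6.93 TPM with 4-Cl-HIPP against 8.90, 10.8 and 11.8 TPM with vehicle, without overlap, a ratio of 0.558 and a difference of -0.75 on the log2(TPM + 1) scale (SE 0.15, Benjamini-Hochberg-adjusted p = 0.0449, limma). Among all genes 0.0305% were called lower. This call stood close to the threshold and was lost under 4 other settings (adjusted p = 0.0548 to 0.260, limma) and without wildtype vehicle replicate 2 or 3 or wildtype 4-Cl-HIPP replicate 1 or 2 (adjusted p = 0.134 to 0.187, limma). Oas3 had 15.2, 14.4 and 16.9 TPM against 20.6, 23.4 and 23.2 TPM, again without overlap (-0.50, SE 0.11, adjusted p = 0.0826, limma). Oas2 had 15.0, 15.3 and 17.1 TPM, each below the lowest vehicle sample of 17.3 TPM (-0.26, SE 0.13, adjusted p = 0.670, limma). Oas1g had 21.5, 27.3 and 26.7 TPM, also below its lowest vehicle sample of 27.7 TPM (-0.25, SE 0.13, adjusted p = 0.704, limma). These 4 members were lower with no overlap, as were 4.94% of all genes.

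The remaining members overlapped with vehicle. Oas1a had 44.8, 40.6 and 46.8 TPM with 4-Cl-HIPP (-0.06, 95% interval -0.26 to 0.13, adjusted p = 0.944, limma), Oasl2 had 0.965, 2.00 and 0.712 TPM (-0.18, -0.91 to 0.54, adjusted p = 0.967), and Oas1c had 2.89, 4.03 and 3.58 TPM (0.23, -0.25 to 0.72, adjusted p = 0.900). For Oas1a the interval leaves out a change of 1.5-fold in either direction, and for Oasl2 and Oas1c it does not. Oas1c was the only member with a positive difference. Its ratio was 1.24, and that of Oasl2 0.760. The median over the members was -0.25, and that of all genes 0.01.

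In dKO cells no member was called with 4-Cl-HIPP (limma), where 0.153% of all genes were called in either direction, and 2 of 7 had an unadjusted p-value below 0.05, as had 8.47% of all genes. These were Oas3, with 57.3, 58.5 and 49.7 TPM against 63.9, 59.9 and 74.6 TPM with vehicle (-0.25, SE 0.11, adjusted p = 0.543, limma), and Oas1a, with 68.0, 77.4 and 72.6 TPM against 81.0, 77.8 and 93.1 TPM (-0.20, SE 0.09, adjusted p = 0.564, limma). Both were lower without overlap, by a narrow gap, as were 5.73% of all genes. Oasl1 had 24.0, 22.7 and 29.0 TPM and overlapped with vehicle (-0.17, SE 0.15, adjusted p = 0.844, limma). The other members had log2 differences of -0.47 (Oas1c), -0.19 (Oas2), -0.18 (Oas1g) and 0.18 (Oasl2), with adjusted p-values of 0.606 to 0.954 (limma). Oas1c had a ratio of 0.641 and Oasl2 one of 1.17.

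The difference of the 4-Cl-HIPP effects between genotypes passed for no member and for no gene at all (limma), and 2 members, as well as 4.48% of all genes, had unadjusted p-values below 0.05. For Oasl1 the difference, wildtype minus dKO, was -0.57 (95% interval -1.02 to -0.13, adjusted p = 1, limma). For Oas1c it was 0.70 (0.02 to 1.39, adjusted p = 1, limma).

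The inhibitors can be set side by side for Oas3 and Oasl1 in wildtype cells. For Oas3 the means were 15.5 ± 1.31 TPM with 4-Cl-HIPP, 22.4 ± 1.56 TPM with vehicle and 37.8 ± 5.33 TPM with MTOB (SD, n = 3). For Oasl1 they were 5.85 ± 0.942, 10.5 ± 1.46 and 15.0 ± 2.93 TPM (SD, n = 3). Oas3 was called with MTOB but not with 4-Cl-HIPP (adjusted p = 0.0826, limma). Oasl1 was called with 4-Cl-HIPP, close to the threshold, but not with MTOB (adjusted p = 0.0706, limma). Not all members had opposite directions, as Oas1c had log2 differences of 0.21 with MTOB and 0.23 with 4-Cl-HIPP. The 2 inhibitors were used at different concentrations and share the vehicle samples, so that their effects were not compared by a test.

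Of the other genes of the family and its pathway, Oas1b, Oas1d, Abce1 and Pde12 were tested, and Oas1e, Oas1f and Oas1h were not analysed here. Oas1b, the Oas1 gene linked to flavivirus resistance in mice, differed between genotypes in the direction of the members. It had 4.79, 3.90 and 6.84 TPM in wildtype and 9.77, 8.21 and 7.39 TPM in dKO cells under vehicle, and was called higher in dKO cells (0.64, SE 0.19, adjusted p = 0.0482, limma) and under 4-Cl-HIPP (1.20, SE 0.19, adjusted p = 0.000551, limma), but not under MTOB (0.57, SE 0.19, adjusted p = 0.0775, limma). With 4-Cl-HIPP in wildtype cells it had 3.12, 3.13 and 2.72 TPM, below every vehicle sample (-0.60, SE 0.19, adjusted p = 0.329, limma). Oas1d, known from oocytes, stayed between 0 and 0.12 TPM in every sample.

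Abce1, an ATP-binding protein of ribosome recycling, ranged from 174 to 195 TPM over all 18 samples and was called in no comparison. Pde12, a phosphodiesterase that degrades oligoadenylates, had 10.5, 10.4 and 11.5 TPM with MTOB against 12.6, 12.8 and 14.1 TPM with vehicle in dKO cells (-0.26, SE 0.07, adjusted p = 0.0450, limma), a difference below the fold limit.

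**Figure D3:**
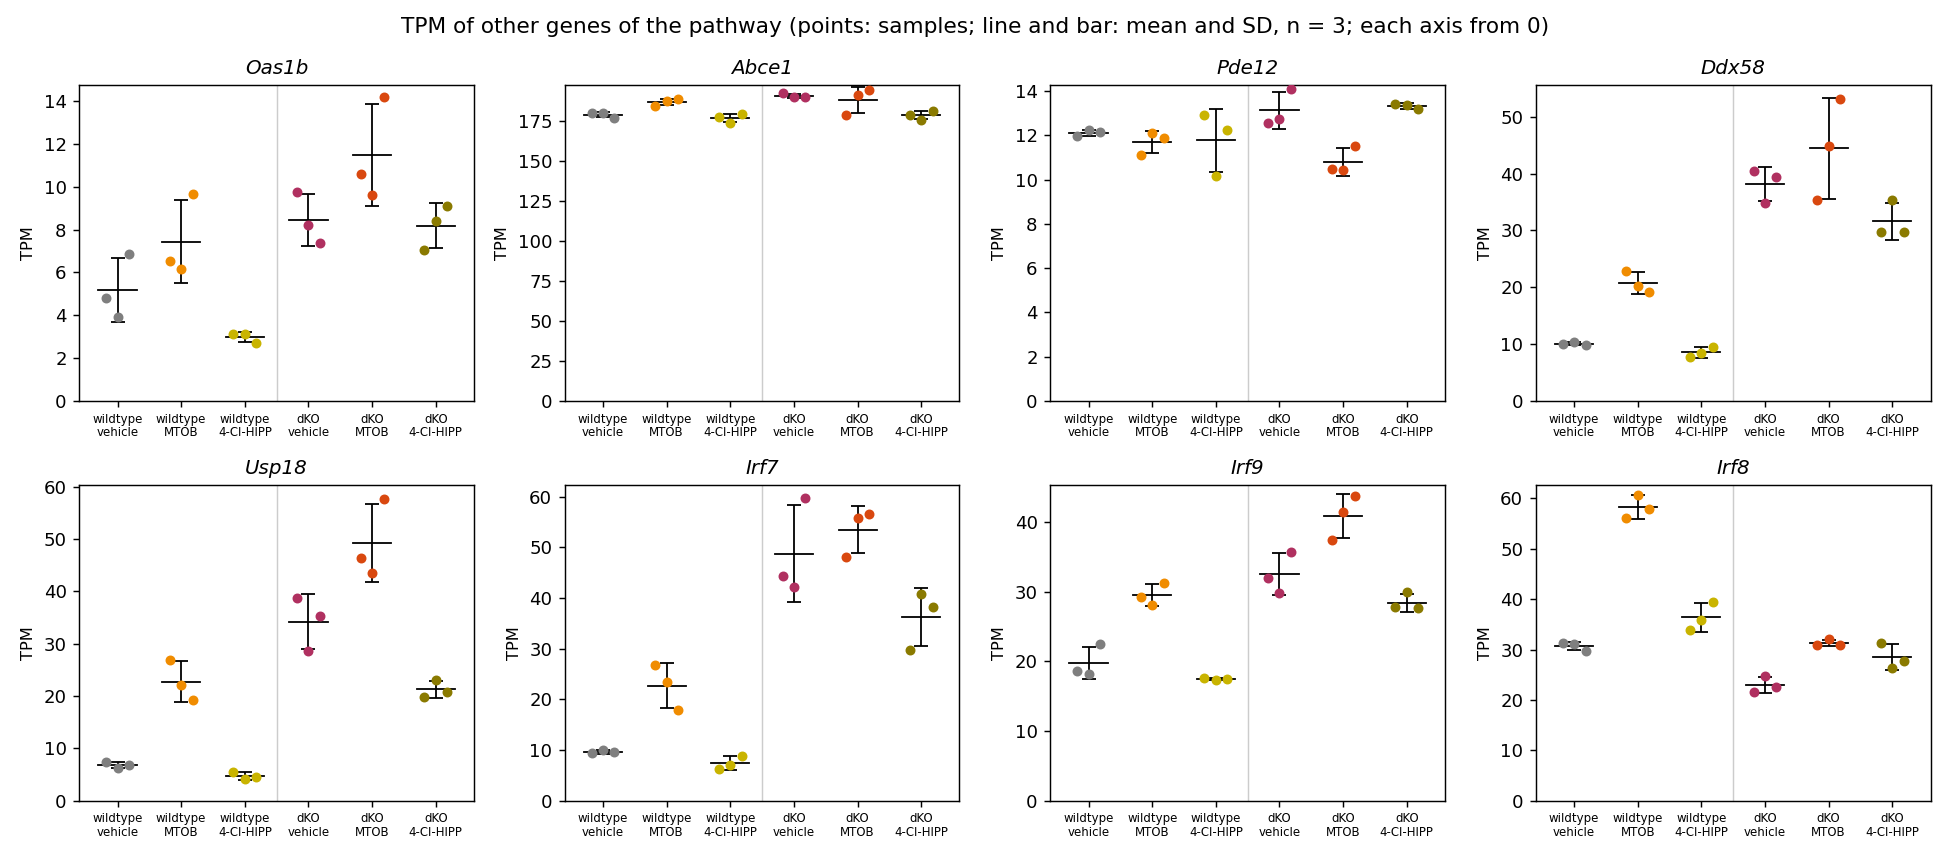
TPM (vertical axes, each from 0) of Oas1b, Abce1 and Pde12 and of the sensor and interferon pathway genes Ddx58, Usp18, Irf7, Irf9 and Irf8 in the 6 groups, with samples as points and the mean and SD of 3 replicates. Under vehicle every dKO sample of Oas1b, Ddx58, Usp18, Irf7 and Irf9 lies above every wildtype sample, and every dKO sample of Irf8 lies below.

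A list of 9 other genes tied to the sensing of foreign nucleic acid, not all of them sensors, was set beside the family. In dKO cells under vehicle 5 of the 9 were called higher and 4 were not called, where 3.28% of all genes were called higher, and the median log2 fold change was 0.70 against 1.37 for the OAS members and 0.01 for all genes. With MTOB in wildtype cells 3 were called higher, where 1.56% of all genes were, with a median of 0.50 against 0.47 for the OAS members and -0.01 for all genes. With MTOB in dKO cells none of the 9 was called (limma), where 1.63% of all genes were called in either direction. An unadjusted p-value below 0.05 was found for 2 of the 9 (limma), against 19% of all genes. Ddx58, the RNA helicase RIG-I, rose by 1.82 in dKO cells (SE 0.12, adjusted p = 5.43e-08, limma) and by 0.97 with MTOB in wildtype cells (SE 0.12, adjusted p = 0.000103, limma). Eif2ak2, the kinase PKR that halts protein synthesis on double-stranded RNA, rose by 0.70 and 0.73 in the same comparisons (adjusted p = 0.000190 and 0.000242, limma), and the helicase gene Ifih1 by 1.03 in dKO cells (adjusted p = 6.7e-05, limma). Adar, an RNA-editing enzyme named after its value was seen, was the gene of the 9 for which the difference between the MTOB effects of the genotypes passed (0.50 in wildtype and 0.09 in dKO cells, difference 0.41, SE 0.07, adjusted p = 0.0452, limma). With 4-Cl-HIPP none of the 9 was called in wildtype or dKO cells (limma), where 0.14% and 0.153% of all genes were called in either direction. At such shares of called genes a count of 0 among 9 genes says nothing particular about the list. Unadjusted p-values below 0.05 were found for 1 of the 9 in wildtype and 4 in dKO cells (limma), against 8.19% and 8.47% of all genes. Those 4 did not all move in the same direction.

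Of 14 interferon signalling genes, 4 were called higher in dKO cells under vehicle and 3 with MTOB in wildtype cells, where 3.28% and 1.56% of all genes were. The medians of the list were 0.38 and 0.21, and those of all genes 0.01 and -0.01. With MTOB in dKO cells none of the 14 was called (limma), where 1.63% of all genes were called in either direction. The adjusted p-value alone was passed by 4, all higher, as by 3.04% of all genes. These were Irf1, Irf8, Irf9 and Usp18, with log2 differences of 0.56, 0.43, 0.32 and 0.51 (adjusted p = 0.00821, 0.00111, 0.0319 and 0.0419, limma). With 4-Cl-HIPP none of the 14 was called in wildtype or dKO cells (limma), against 0.14% and 0.153% of all genes. Unadjusted p-values below 0.05 were found for 4 and 6 (limma), against 8.19% and 8.47% of all genes, in mixed directions. Among them Usp18 was lower (-0.46 and -0.65, adjusted p = 0.288 and 0.0558, limma) and Irf8 higher (0.23 and 0.30, adjusted p = 0.264 and 0.0795, limma). Irf7, the interferon regulator on which OASL1 acts, had 9.66 ± 0.363 TPM in wildtype cells against 48.7 ± 9.56 TPM in dKO samples (SD, n = 3) and a difference of 2.20 on the log2(TPM + 1) scale (SE 0.16, adjusted p = 1.45e-07, limma). Usp18, a protease that removes ISG15 and dampens receptor signalling, rose by 2.15 in dKO cells (SE 0.14, adjusted p = 4.3e-08, limma). Irf9, the DNA-binding subunit of the complex at the response element, rose by 0.69 (SE 0.08, adjusted p = 3.51e-05, limma). Irf1 differed by 0.41 under vehicle, below the fold limit, and was called higher in dKO cells under MTOB (0.95, SE 0.12, adjusted p = 3.71e-05, limma). Irf8, a regulator of macrophage development, was called higher with MTOB in wildtype cells, at 56.1, 60.8 and 58.0 TPM against 31.3, 31.1 and 29.8 TPM with vehicle (0.90, SE 0.07, adjusted p = 6.09e-07, limma), the direction of Oas2 and Oas3. In dKO cells Irf8 was also higher with MTOB, at a mean of 31.3 TPM against 23.0 TPM with vehicle, without overlap. This difference was below the fold limit (0.43, SE 0.07, adjusted p = 0.00111, limma). Between genotypes Irf8 differed in the other direction from the members. Its log2 fold changes in dKO cells were -0.41 under vehicle (adjusted p = 0.000838, limma), below the fold limit, and -0.88 under MTOB (SE 0.07, adjusted p = 3.33e-07, limma). Ifnb1, which encodes interferon beta, was listed at 0 in all 9 wildtype samples and at 1.04, 0 and 0.781 TPM in dKO cells under vehicle, 0.911, 1.30 and 0 TPM under MTOB and 0 in all 3 samples under 4-Cl-HIPP. Its mean normalized count over the samples was 0.577, near the floor, so no conclusion is drawn from these values.

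Genes with a pattern like that of the family were looked up by distance. The mean of the 7 centred log2(TPM + 1) profiles over the 18 samples was compared with 1034 candidate genes, whose SD over the samples was at least 0.5 times that of the profile, by the root-mean-square difference, given as a description. Anxa1 (annexin A1), at 0.162, was nearest, followed by Ifih1 (0.167), Gvin2 (0.172), Lgals9 (galectin 9, 0.174) and Gm20559 (0.185). Anxa1 had mean TPM of 72.6 in wildtype and 176 in dKO cells under vehicle and 99.4 with MTOB in wildtype cells. All 5 were called higher in dKO cells under each treatment, a direction fixed by the way they were chosen.

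**Figure D4:**
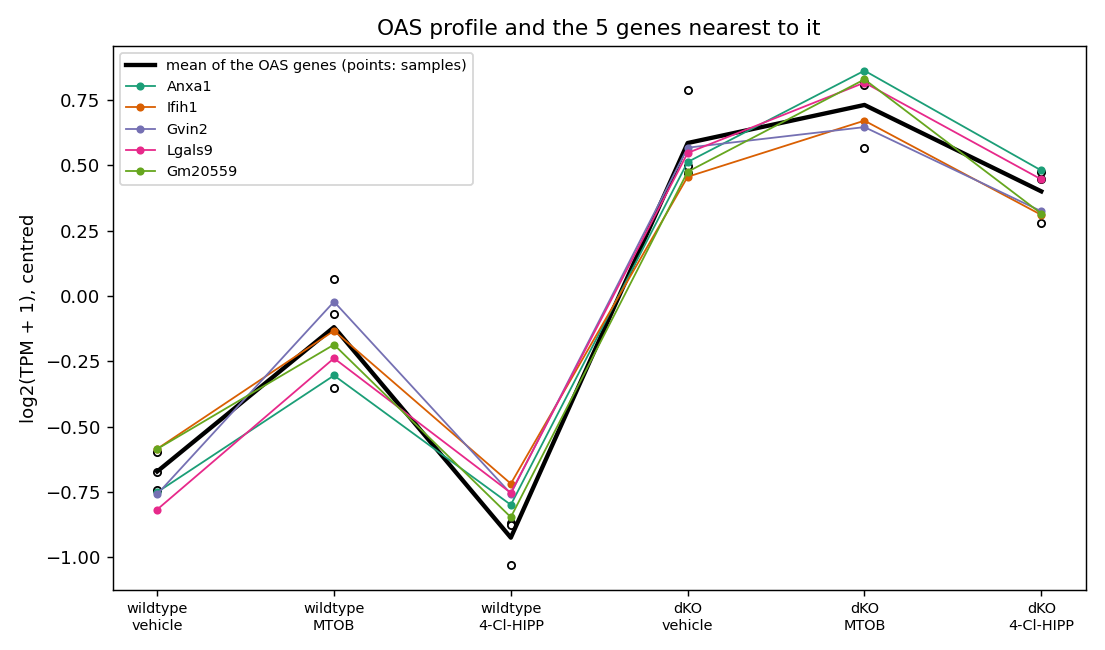
Centred log2(TPM + 1) by group for the mean of the 7 OAS genes (black line, with samples as open points) and for the log2 of group mean TPM of Anxa1, Ifih1, Gvin2, Lgals9 and Gm20559 (coloured lines). The lines are lowest in wildtype cells with vehicle or 4-Cl-HIPP, intermediate with MTOB and highest in dKO cells.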

How the data were processed

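RNA was sequenced from 18 J774.1 samples in 6 groups of 3. Per the labels and methods, the authors quantified reads with Salmon 1.9.0 against the mouse Gencode M28 transcripts (GRCm39), summarised them by gene and tested them with DESeq2 1.44.0. The deposited values are TPM for each sample, scaled by the authors to nearly equal sums (999766 to 999897), and a mean normalized count per gene, a signal computed by the authors over the samples. Its 8 columns of log2 fold changes and adjusted p-values are the authors' comparisons and were not used. TPM keep no depth, so a count test could not be run and limma was used instead.

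Here, log2(TPM + 1) was fitted with limma 3.58.1 in R 4.3.3, with a mean for each group, all 18 samples and a variance trend on the mean normalized count. Genes above the 10th percentile of that count (0.222) were kept, 16383 of 18204, and p-values were adjusted over them by the Benjamini-Hochberg method, separately for each comparison. Alternatives were no filter, a mean count of at least 10, a pseudocount of 0.1, rescaling by median ratios, no variance trend, a replicate block, compared groups only, the adjusted p-value alone, and leaving out each sample. The fit was tested on simulated data. Figures were drawn with matplotlib 3.10.9.

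The 7 members and the lists were chosen with earlier results of these data known. Named were all members, Ctbp1 and Ctbp2, other genes of the OAS pathway, up to 8 called genes of the sensor and signalling lists by smallest adjusted p, and the 5 genes nearest to the family profile among those with a mean count of at least 50 and an SD of at least 0.5 times that of the profile. Adar and Ifnb1 were named after their values were seen. Some genes of these lists are not reported here by name.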

Additional observations from a re-analysis of the deposited data

Results flagged for a closer look

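Oas1c stood out under both inhibitors because its samples moved in opposite directions in the 2 genotypes. With MTOB every wildtype sample lay above the wildtype vehicle mean of 2.83 TPM and every dKO sample lay below the dKO vehicle mean of 6.98 TPM, and the log2 effects differed by 0.63 (wildtype minus dKO). With 4-Cl-HIPP the same was seen, and the effects differed by 0.70. This pattern of directions is no test in itself, both comparisons share the vehicle samples, and the difference did not pass in limma (adjusted p = 0.747 for MTOB and 1 for 4-Cl-HIPP). The dKO vehicle samples of Oas1c spread widely, at 3.76, 9.24 and 7.94 TPM.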

How the results depend on the processing

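Of 903 alternative log2 fold changes of the members, 887 kept their side of the threshold, 12 lost a call and 4 gained one. Of the called values 0 changed direction, while 13 of the 887, all uncalled, changed sign. The stricter filter, the pseudocount of 0.1 and the rescaling changed no call of a member. With 4-Cl-HIPP in wildtype cells the number of members called went from 1 to 0 with no filter, with no variance trend, with the replicate block and with the compared groups only, and was 0 to 1 when samples were left out. Leaving out samples gave 2 to 3 members for MTOB in wildtype cells, 0 to 1 for MTOB in dKO cells, and 6 to 7, 3 to 5 and 6 for dKO against wildtype cells under vehicle, MTOB and 4-Cl-HIPP. Over all genes the adjusted p-value alone gave 1189 and 1078 genes for MTOB in wildtype and dKO cells (329 and 267 with the fold limit), 60 and 82 for 4-Cl-HIPP (23 and 25), and 1757, 1829 and 1676 for dKO against wildtype cells under vehicle, MTOB and 4-Cl-HIPP (792 and 811 with the fold limit under vehicle and MTOB). The compared groups only gave 135 genes for MTOB in dKO cells, 15 and 7 for 4-Cl-HIPP in wildtype and dKO cells, and 2 instead of 0 for the difference of the 4-Cl-HIPP effects. For the difference of the MTOB effects 15 genes became 6 with no variance trend and 8 with the replicate block. Leaving out samples gave 9 to 23 and 12 to 31 genes for 4-Cl-HIPP in wildtype and dKO cells (lowest without wildtype 4-Cl-HIPP replicate 2 and dKO 4-Cl-HIPP replicate 1), 7 to 20 (lowest without dKO vehicle replicate 3) for the difference of the MTOB effects and 0 to 3 for that of the 4-Cl-HIPP effects. The causes of these changes were not tested. Same-numbered replicates did not deviate together (r over genes of -0.136 to 0.0607 within and -0.141 to 0.0909 between genotypes, with 0 of 18 and 0 of 27 pairs over 0.1), so the number was not taken as a pairing. With the replicate block the adjusted p of Oasl1 with 4-Cl-HIPP in wildtype cells was 0.0625 (limma). The groups of 3 and the unknown depth limit what could be detected, most of all for Oas1c and Oasl2 at a few TPM.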
